A study of Mus musculus with 7 samples.

Results

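RNA of extracellular vesicles (EVs) released by cells with restored Dis3l2 was compared with EV RNA of cells with native Dis3l2, to see how near the rescue comes to the control. The comparison used 2 of the 7 libraries of the series, both chosen by their labels: EVs of shDis3l2 + Dis3l2r cells and EVs of shNS cells. All cells were RAW264.7, a mouse macrophage line, and all received doxycycline at 1 µg/mL. The shNS cells carried a non-silencing hairpin and kept their own Dis3l2. The Dis3l2r cells carried a hairpin against Dis3l2 (shDis3l2) together with a Dis3l2 transgene that the hairpin does not target. Beside this pair stand 3 EV libraries without active Dis3l2 by label: shDis3l2 alone, shDis3l2 + Vector (an empty vector), and shDis3l2 with the catalytically inactive Dis3l2 D389N. EVs were collected over 24 h in medium with EV-depleted serum, purified by density on sucrose, then exposed to micrococcal nuclease. The other 2 libraries are whole-cell RNA and enter only 1 alternative scale and the counts given for 1 transcript.

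Each group had 1 library, so there was no test, and every interval covers counting error only. The labels do not say whether a line is a clone or a pool, or what promoter drives the transgene. The pair differs in the hairpin, the transgene, the line and the EV preparation as well as in the source of Dis3l2, and these cannot be told apart. The level of Dis3l2 and macrophage markers were not checked, because the transcript IDs of the table were not matched to gene names. In EV RNA, fewer vesicles holding an RNA and fewer copies per vesicle cannot be told apart.

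Dis3l2 is an exoribonuclease that degrades RNA from its 3' end and prefers RNAs to which uridines have been added. Its known targets include short structured RNAs, many of them made by RNA polymerase III, such as tRNAs. Some tRNA genes hold an intron, which a splicing endonuclease cuts out before the exon ends are joined. Rodent cells also make 4.5S RNA and transcripts of SINE repeats, which are RNA polymerase III products too.

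The Dis3l2r library was the shallowest of the EV libraries, with 13439403 counts on whole-RNA rows (tRNA, spliced tRNA, SINE, 4.5S and transcript rows) against 23667937 in shNS. The other 3 EV libraries held 18428628 to 25177105. tRNA rows made up 69.5% of the Dis3l2r counts and 73.8% of the shNS counts. Transcript rows made up 24.5% and 20.0%, and 4.5S RNA 5.06% (95% exact interval 5.05% to 5.07%) and 4.78% (4.77% to 4.79%). Intervals of the tRNA and transcript shares are too narrow to change the digits given. Spliced tRNA rows held 0.708% in Dis3l2r (95% exact interval 0.704% to 0.713%) and 1.22% in shNS (1.21% to 1.22%). SINE rows held 0.231% and 0.154%. The 10 most abundant rows held 55.2% of the Dis3l2r counts and 53.5% of the shNS counts.

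Most vesicle RNAs lay near the control level in the rescue. Levels are given as TMM-scaled CPM (counts scaled to a common library size), where TMM is a trimmed mean that sets the libraries on 1 scale. Of 3894 whole-RNA rows, 973 had a count in either library, and the 415 with at least 100 counts over both are called measured. Of these, 260 (62.7%) lay within 1.5-fold of shNS. An RNA is called higher or lower where the ratio reached 2-fold and its 95% counting interval excluded 1. By that rule 32 were higher (7.71% of those measured) and 31 lower (7.47%), together 63 (15.2%). The split of the calls depended on the scale. It was 23 higher and 37 lower with TMM factors from the pair alone, from all 7 libraries or with totals of all rows. It was 9 and 62 with exon-piece totals, 9 and 64 with intron-piece totals, and 44 and 27 with totals that leave out the most abundant transcript. The median log2 ratio over the 550 RNAs with at least 20 counts was 0.12. A change of scale moves every log2 ratio alike: by -0.12 with TMM from the pair or from all 7 libraries, -0.11 with all rows, -0.40 and -0.42 with exon and intron totals, and 0.11 without the most abundant transcript.

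**Figure D1:**
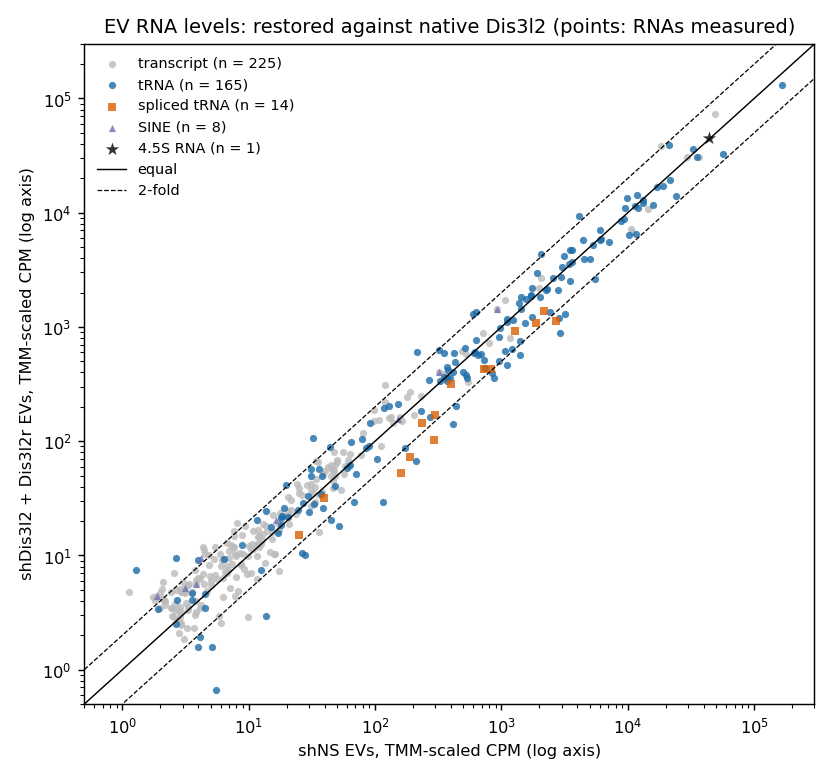
Each point is 1 measured RNA, with its TMM-scaled CPM in shNS EVs on the x axis and in shDis3l2 + Dis3l2r EVs on the y axis (both log axes); colours and shapes give the kind of RNA, the solid line equal levels and the dashed lines a 2-fold difference. The 14 spliced tRNA rows all lie below the line of equal levels, and 2 of the 227 measured transcripts, listed at 0 in 1 of the libraries, cannot be drawn.

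The share called was highest among the rarest measured RNAs and lowest among the most abundant. Of the 185 RNAs with a mean of 50 to 500 counts, 17.8% were called. The share was 13.1% of 99 RNAs from 500 to 5000 counts, 15% of 80 from 5000 to 50000, and 9.80% of 51 above that. The median absolute log2 ratio went from 0.52 in the rarest to 0.27 in the most abundant of these bins.

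Set beside the other EV pairs, Dis3l2r and shNS were among the nearer ones. Over the same 399 RNAs the median absolute log2 ratio was 0.43 between Dis3l2r and shNS, 0.41 between shNS and shDis3l2, and 0.44 between shDis3l2 and Dis3l2r. The other 7 pairs lay between 0.57 and 0.69, and the largest value was that of Dis3l2r and Vector. By the rule of size, 11.2% of RNAs differed between shNS and shDis3l2, 15.2% between shNS and Dis3l2r, and 16.5% between shDis3l2 and Dis3l2r. The figure was 30.3% between shNS and Vector, 30.8% between shNS and D389N, and 33.3% between Vector and Dis3l2r. These pairs share libraries, so they are not independent. On the main scale the rescue stood no nearer to shNS than the parental knockdown did, and nearer than Vector or D389N. The median of Dis3l2r and shNS was 0.37 to 0.44 on other scales. The other pairs were not recomputed there, so whether this order depends on the scale was not tested. By the percent of unscaled counts that would have to move to make a pair equal, the order differed: 12.9 for Dis3l2r and shNS, 12.0 for shDis3l2 and shNS, and 10.3, a lower value, for Vector and shNS.

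**Figure D2:**
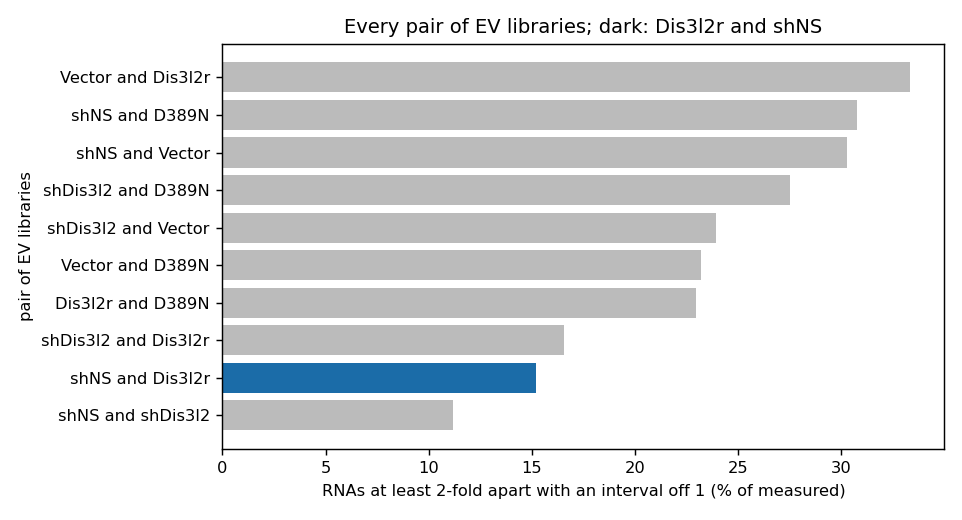
Bars give, for each of the 10 pairs of EV libraries (1 library each), the percent of measured RNAs that differ at least 2-fold with a 95% counting interval that excludes 1. The dark bar, shNS and Dis3l2r, stands at 15.2%, above shNS and shDis3l2 at 11.2% and below the 33.3% of Vector and Dis3l2r.

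The position of each RNA among the other EV libraries was read from its scaled level in shDis3l2, Vector and D389N. Of the 415 measured RNAs, Dis3l2r lay inside the span of those 3 libraries for 201, and shNS for 185. For the 63 called RNAs the counts were 29 and 25. Of these 63, shNS alone lay outside for 21, Dis3l2r alone for 17, both for 17 and neither for 8.

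tRNA families, summed over the unspliced rows of an anticodon so that near-identical copies do not divide reads, were mostly near the control. Of 51 families 49 were measured, 35 lay within 1.5-fold, and the median log2 ratio was -0.08. By the rule of size 7 families were called (14.3%): Pro-AGG was higher, and Val-CAC, Ser-GGA, Asn-GTT, Arg-TCG, Trp-CCA and Met-CAT were lower. The most abundant families moved less. Gly-TCC, the glycine tRNA that dominates these vesicles, had 131940 CPM in Dis3l2r and 165901 in shNS (log2 -0.33). Arg-CCG had 54882 and 53998 (0.02), Glu-CTC 30942 and 35456 (-0.20), and Gln-CTG 24471 and 24911 (-0.03). Signs this near 0 turn with the scale: Arg-CCG was negative with TMM from the pair or from all 7 libraries, DESeq2 factors, and totals of all rows, exon or intron pieces, and Gln-CTG positive with whole-RNA totals or without the most abundant transcript. Lys-CTT had 39349 and 66939 CPM (-0.77), under the 2-fold limit except with exon or intron totals.

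The families that fell furthest were of low to middle abundance. Val-CAC, which reads a valine codon, had 3156 CPM in shNS, 2288 in shDis3l2, 2134 in Vector, 984 in Dis3l2r and 1060 in D389N. Dis3l2r was the lowest, at a log2 ratio of -1.68 (95% interval -1.71 to -1.66) to shNS. D389N stood beside it, and the 3 libraries without a Dis3l2 transgene were higher. The tryptophan tRNA Trp-CCA had 3118, 2593, 2713, 1466 and 1466 CPM in the same order, and a log2 ratio of -1.09 (-0.98, under the limit, without the most abundant transcript). Asparagine Asn-GTT had 3235, 2424, 2591, 1335 and 1609 CPM (-1.28). Elongator methionine Met-CAT had 2657, 2428, 2310, 1288 and 1434 (-1.04, but -0.98 with whole-RNA totals and -0.94 without the most abundant transcript). Arg-TCG had 5911, 5139, 6649, 2726 and 2986 (-1.12). In each of these 5 families the Dis3l2r and D389N libraries were the lowest 2 of the 5. These families were picked for a low Dis3l2r level, and the order was not particular to them. Gly-TCC, Lys-CTT, His-GTG, Ile-AAT, Val-AAC and Asp-GTC, which were not called, had it too. Ser-GGA, with only 714 counts in shNS and 154 in Dis3l2r, had 28.0, 34.7, 43.1, 10.2 and 27.4 CPM (-1.46), low in Dis3l2r alone. In all 6 lower families shDis3l2 lay within 1.5-fold of shNS, which was not particular to them. Of the measured families, only Arg-TCT, Ile-TAT, Tyr-GTA and Ser-AGA had shDis3l2 further from shNS than that.

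**Figure D3:**
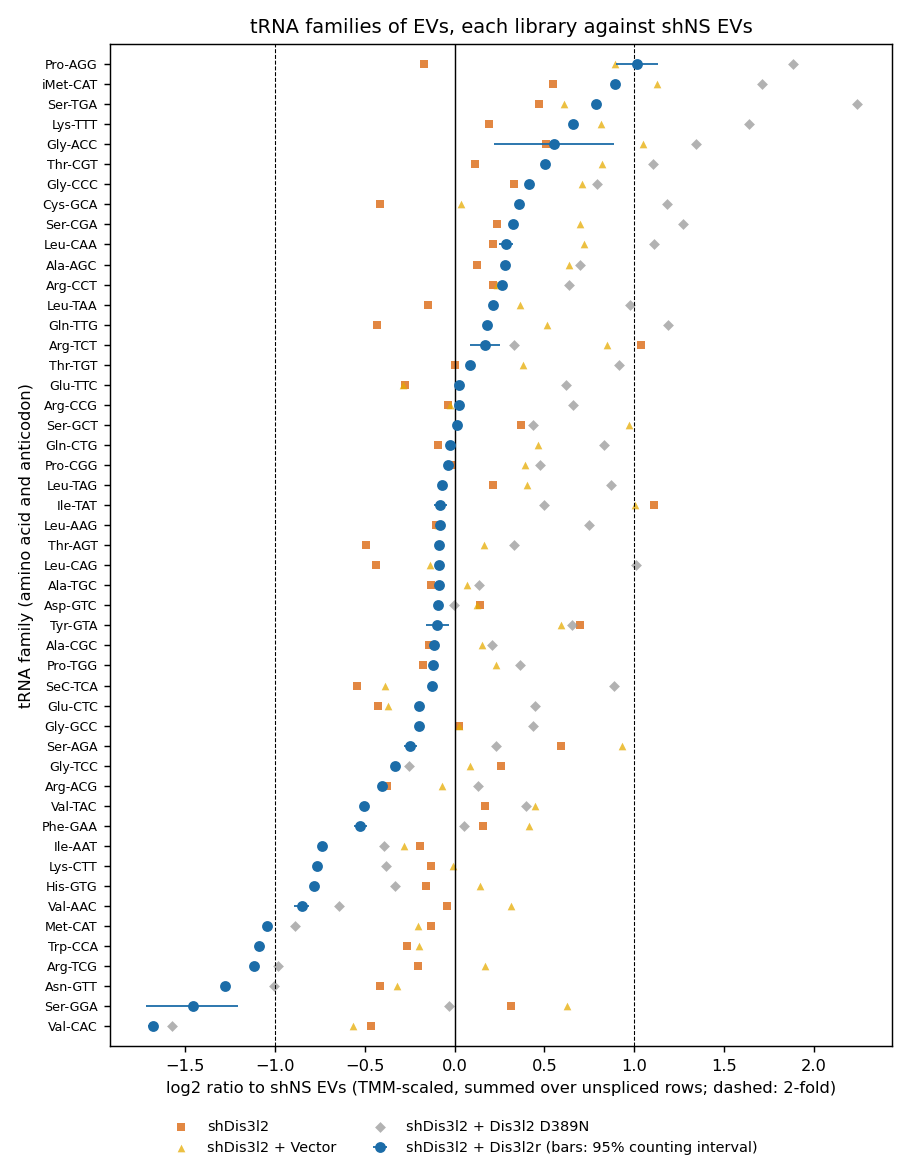
Each row is 1 of the 49 measured tRNA families, ordered by the log2 ratio of Dis3l2r to shNS EVs (filled circles with 95% counting intervals); squares, triangles and diamonds give the log2 ratio to the same shNS library for shDis3l2, Vector and D389N. All 4 share the shNS library; Val-CAC at -1.68 is the lowest Dis3l2r value and Pro-AGG at 1.02 the highest, and in Trp-CCA the circle hides the D389N diamond.

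Initiator methionine tRNA (iMet-CAT), which starts translation, lay well above the control in the rescue without reaching 2-fold. Its levels were 21295 CPM in shNS, 31182 in shDis3l2, 39494 in Dis3l2r, 46474 in Vector and 69769 in D389N. shNS was the lowest of the 5, and Dis3l2r (log2 0.89, 95% interval 0.89 to 0.90) lay between shDis3l2 and Vector. Almost all of it came from 1 row, tRNA-iMet-CAT-1-1, whose share of counts was 4.44% in Dis3l2r and 2.30% in shNS. Pro-AGG, with 44.2 CPM in shNS and 89.4 in Dis3l2r, had 39.3 in shDis3l2, 82.2 in Vector and 163 in D389N. Its log2 ratio of 1.02 became 0.90 with TMM from the pair or from all 7 libraries and to 0.96 with DESeq2 factors, under the limit.

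By amino acid, the lower calls were most frequent in valine and tryptophan. These counts stand beside the 7.47% of all measured RNAs called lower and the 7.71% called higher. Of measured tRNA rows 13.3% were lower and 6.67% higher. Of 10 measured valine rows 6 were lower, of 5 tryptophan rows 4, of 5 elongator methionine rows 2, and of 18 arginine rows 3. Asparagine had 1 of 2 rows lower, histidine 1 of 3 and initiator methionine 1 of 3. The groups were picked for mention after their values were seen. None of the 18 alanine, 16 leucine, 8 cysteine or 7 glutamine rows was called. Glycine had 3 of 9 rows higher and none lower, although the summed glycine level was below shNS (log2 -0.26). In all, 11 of 165 measured tRNA rows were higher and 22 lower. The median log2 ratio over the 190 with at least 20 counts was -0.04, and it turned positive with whole-RNA totals (0.02) or without the most abundant transcript (0.07). Rows of a family can share reads, and how the counting split them was not stated.

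Single tRNA rows moved further than their families. tRNA-Thr-AGT-7-1 had 33 counts in shNS and 113 in Dis3l2r, or 1.29 and 7.47 CPM, a log2 ratio of 2.53 (95% interval 1.96 to 3.14). It had 41.0 CPM in shDis3l2, 42.1 in Vector and 7.06 in D389N, so Dis3l2r lay well below the knockdown and still above shNS. Within glycine, tRNA-Gly-CCC-3-1 had 4136 CPM in shNS, 4602 in shDis3l2, 12363 in Vector, 9278 in Dis3l2r and 11838 in D389N. The 3 lines with a vector or transgene were high and the 2 parental lines low. tRNA-Gly-CCC-2-1 showed the same division, with 32.5 and 32.1 CPM in shNS and shDis3l2 against 105, 107 and 108 in Vector, Dis3l2r and D389N. Both rows were named for their rise in Dis3l2r over shNS, and the share of RNAs with this division was not counted. tRNA-Met-CAT-4-1, with 68 and 145 counts, was higher at a log2 ratio of 1.85. tRNA-Ile-AAT-3-1 was higher at 1.51, from 214 CPM in shNS to 608 in Dis3l2r, and higher still in D389N at 942. The other named rises were tRNA-Thr-CGT-4-1, tRNA-Gly-GCC-3-1, tRNA-Lys-TTT-5-1 and tRNA-Ser-TGA-2-1, at 1.06 to 1.11. These 4 stood at 0.94 to 0.99 with TMM from the pair or from all 7 libraries, under the limit.

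The lower rows included rare ones. tRNA-Trp-CCA-1-1 fell from 141 counts in shNS to 10 in Dis3l2r, a log2 ratio of -3.06 (95% interval -4.15 to -2.14). Its CPM was 5.52 in shNS, 1.45 in shDis3l2, 3.02 in Vector, 0.66 in Dis3l2r and 1.45 in D389N, so shNS was the highest of the 5. tRNA-His-GTG-3-1 fell from 353 counts to 45 (-2.22). tRNA-Val-AAC-2-1 had 115 CPM in shNS, 77.8 in shDis3l2, 83.7 in Vector, 29.2 in Dis3l2r and 19.9 in D389N (-1.97). The abundant row tRNA-Val-CAC-2-1, with 73946 and 13513 counts, was at -1.70. tRNA-Val-CAC-3-1, tRNA-Tyr-GTA-1-3, tRNA-Val-AAC-5-1 and tRNA-Ile-AAT-2-1 lay between -1.68 and -1.52.

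The tRNA families with an intron divided into unspliced rows near the control level and spliced rows below it. Summed over the 4 families (Ile-TAT, Arg-TCT, Tyr-GTA, Leu-CAA), the unspliced level was 1604 CPM in shNS and 1677 in Dis3l2r, a log2 ratio of 0.06 (95% interval 0.04 to 0.09). It was 2818 in shDis3l2, 2904 in Vector and 2667 in D389N, so the 2 libraries with active Dis3l2 by label were the low ones. That sign turns negative with TMM from the pair or from all 7 libraries and with totals of all rows, exon or intron pieces. Ile-TAT, the most abundant unspliced family in shNS, had 755 CPM in shNS and 715 in Dis3l2r, against 1628 in shDis3l2, 1517 in Vector and 1065 in D389N. Arg-TCT had 117 and 131 against 240, 210 and 147. Tyr-GTA had 218 and 204 against 353, 329 and 342. In these 3 families shNS and Dis3l2r lay below all 3 other libraries on the main scale. By share of whole-RNA counts, unspliced Arg-TCT was lowest in D389N: 0.0121%, against 0.0126% in shNS and 0.0148% in Dis3l2r. In Leu-CAA they did not: 515 CPM in shNS and 627 in Dis3l2r stood beside 597 in shDis3l2, 849 in Vector and 1113 in D389N. An order with shNS and Dis3l2r below all 3 other libraries was not particular to families with an intron. On the main scale Gly-GCC, Leu-TAG, Phe-GAA, Ser-AGA, Ser-GCT and Val-TAC had it too.

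Row by row, 20 unspliced rows of these families were measured. By the rule 1 was higher (tRNA-Arg-TCT-5-1, log2 1.22, 101 and 139 counts) and 1 lower (tRNA-Tyr-GTA-1-3), 10% of the rows against 15.2% of all RNAs. Of the 20 rows 16 (80%) lay within 1.5-fold of shNS. Both shNS and Dis3l2r lay below both shDis3l2 and Vector in 12 of the 20 (60%). That held for 17.8% of all 415 RNAs and 22.1% of measured tRNA rows of other families. shNS lay below both in 17, Dis3l2r in 13. D389N was not part of this count. In tRNA-Tyr-GTA-1-5, tRNA-Tyr-GTA-3-2 and tRNA-Leu-CAA-1-1, which are among the 12, D389N lay below shNS or Dis3l2r. The median log2 ratio over the 22 rows with at least 20 counts was 0.22 and turned negative with exon (-0.19) or intron (-0.20) totals. tRNA-Ile-TAT-1-1 had 371 CPM in shNS, 869 in shDis3l2, 893 in Vector, 338 in Dis3l2r and 596 in D389N. tRNA-Arg-TCT-1-1 had 85.4, 185, 131, 87.7 and 105. In both rows shNS and Dis3l2r were the lowest 2 on the main scale.

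**Figure D4:**
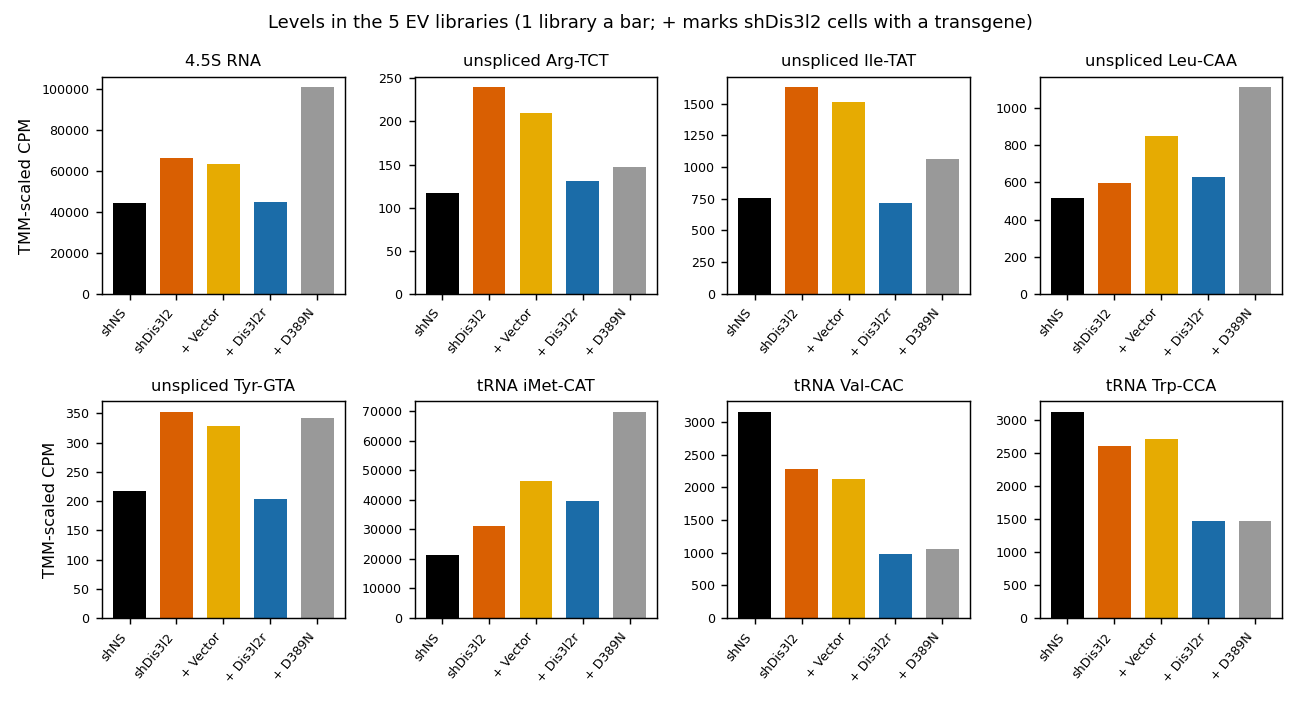
Bars give TMM-scaled CPM in each of the 5 EV libraries (1 library a bar, so no error bar) for 4.5S RNA, the 4 unspliced tRNA families with an intron, and 3 families without one. For 4.5S RNA and unspliced Arg-TCT, Ile-TAT and Tyr-GTA the shNS and Dis3l2r bars are the 2 lowest; for Val-CAC and Trp-CCA the 2 lowest are Dis3l2r and D389N.

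Spliced tRNA rows were lower in the rescue than in shNS throughout. All 14 with at least 20 counts had a ratio below 1, also after each shift of scale given above. Their median log2 ratio was -0.79, and -1.21 to -0.68 over the other scales. By the rule 4 of the 14 were lower (28.6%, against 7.47% of all measured RNAs and 13.3% of measured tRNA rows) and none higher. Only 3 (21.4%) lay within 1.5-fold of shNS, against 62.7% of all measured RNAs. The 4 were 3 Tyr-GTA rows, at -1.62, -1.51 and -1.37, and spliced tRNA-Arg-TCT-1-1 at -1.26. Spliced Tyr-GTA summed to 666 CPM in shNS, 672 in shDis3l2, 438 in Vector, 243 in Dis3l2r and 202 in D389N. Spliced Arg-TCT summed to 4322, 3536, 3543, 2017 and 2296. In both, Dis3l2r and D389N were the lowest 2. Spliced Leu-CAA had 5736, 5692, 6762, 3720 and 5623 CPM, lowest in Dis3l2r alone. Spliced Ile-TAT had 537, 386, 306, 312 and 289, with shNS above the other 4. Dis3l2r lay below shNS, shDis3l2 and Vector together in 12 of 14 spliced rows (85.7%). That held for 23.1% of all 415 RNAs and 41.8% of measured tRNA rows. D389N against shNS had 5 of the 14 spliced rows lower and a median log2 ratio of -0.91.

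The spliced share of a family's counts does not depend on scaling between libraries. Over the 4 families it was 87.5% in shNS, 78.5% in shDis3l2, 79.2% in Vector, 79.0% in Dis3l2r (95% exact interval 78.7% to 79.2%) and 75.9% in D389N. The rescue lay between shDis3l2 and Vector and below shNS. For Ile-TAT it lay between them, at 30.4% against 41.6% in shNS, 19.2% in shDis3l2, 16.8% in Vector and 21.4% in D389N. For Arg-TCT it was 93.9% against 97.4% in shNS and 93.7% to 94.4% in the other 3. For Leu-CAA it was 85.6%, below shNS (91.8%), shDis3l2 (90.5%) and Vector (88.9%). For Tyr-GTA it was 54.4%, against 75.4%, 65.6%, 57.2% and, in D389N, 37.1%. Reads that fit both a spliced and an unspliced row may have been divided by the counting, which was not tested.

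**Figure D5:**
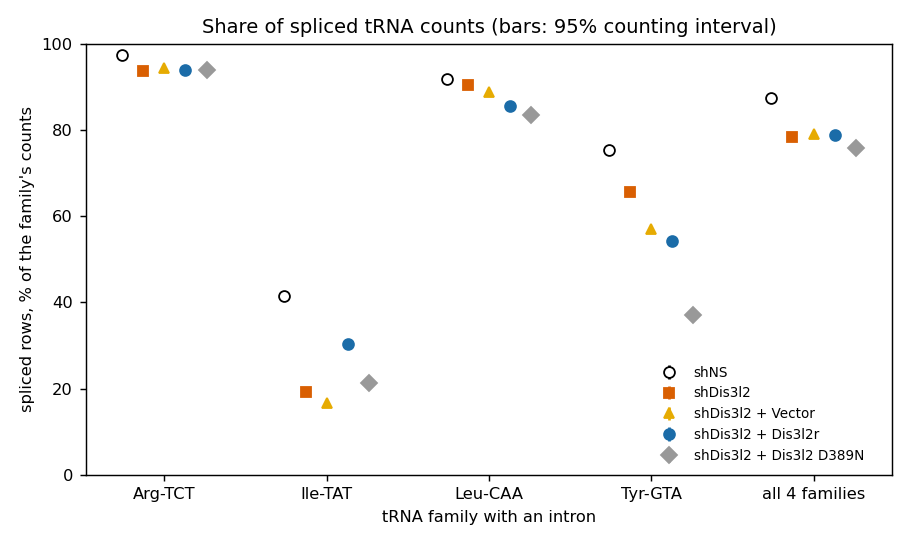
Points give the spliced rows' percent of all counts of a tRNA family (y axis) for the 4 families with an intron and their sum (x axis), in the 5 EV libraries; 95% counting intervals are drawn and are smaller than the symbols. shNS (open circles) is the highest in every family, and over all 4 Dis3l2r lies at 79.0% beside shDis3l2 and Vector.

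4.5S RNA was near the control level in the rescue. It had 44302 CPM in shNS and 44954 in Dis3l2r, a log2 ratio of 0.02 (95% interval 0.02 to 0.03). It had 66150 in shDis3l2, 63366 in Vector and 100707 in D389N. shNS and Dis3l2r were the low 2 of the 5. Both lay below both shDis3l2 and Vector in 17.8% of all 415 measured RNAs. The share of RNAs with both also below D389N was not counted. The sign against shNS turns negative with TMM from the pair or from all 7 libraries (-0.10), DESeq2 factors (-0.03), all rows (-0.09), and exon (-0.38) or intron totals (-0.40).

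SINE transcripts were mostly above the control on the main scale, with a log2 ratio above 0 in 9 rows and below 0 in 2 of the 11 with at least 20 counts. Of 15 rows 8 were measured, 2 higher and none lower, against 7.71% higher and 7.47% lower of all measured RNAs. The median log2 ratio over the 11 was 0.39, or -0.02 and -0.03 with exon and intron totals. SINE_B2 had 152 CPM in shNS, 244 in shDis3l2, 205 in Vector, 156 in Dis3l2r and 166 in D389N. On this scale shNS and Dis3l2r were lowest (log2 0.04, negative under the same scales as 4.5S RNA). With whole-RNA totals D389N was lowest: 2871 of 20950528 counts, against 3886 of 23667937 in shNS and 2364 of 13439403 in Dis3l2r. The most abundant SINE row, 1 of 2 named SINE_B1_Mus2, had 923, 742, 1400, 1437 and 2129 CPM and stood at 0.64. The other had 323, 497, 425, 407 and 560 (0.33). SINE_B4 (108 and 144 counts, log2 1.17) and SINE_B1_Mur4 (48 and 67 counts, 1.24) were the 2 called higher, both on few counts. In all, 9 SINE rows had the counts of a transcript row and stand in both kinds.

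Transcript rows, whose RNA type the table does not give, leaned upward in the rescue on the main scale. Of 3639 rows 730 had a count and 227 were measured; 19 were higher and 5 lower (10.6%, against 15.2% of all RNAs). The median log2 ratio over 334 rows was 0.25, and it was 0.13 with TMM from the pair and -0.15 and -0.17 with exon and intron totals. Dis3l2r was the highest of the 5 EV libraries in 85 of the 227 rows (37.4%), against 21.4% of all RNAs. Against the same shNS library, Vector had 16 transcripts higher and 73 lower, D389N 11 and 44, and shDis3l2 19 and 15.

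ENSMUST00000198477, the called transcript with the most counts, held 1.97% of shNS counts and 4.33% of Dis3l2r counts. Its CPM was 18239 in shNS, 21617 in shDis3l2, 23253 in Vector, 38423 in Dis3l2r and 20015 in D389N. Dis3l2r stood apart from the other 4, at a log2 ratio of 1.07 to shNS, or 0.96 with TMM from the pair or all rows, under the limit. The most abundant transcript row had 49437 CPM in shNS, 33955 in shDis3l2, 21106 in Vector, 73721 in Dis3l2r and 40269 in D389N. Dis3l2r was the highest and shNS the next, 1.49-fold apart. ENSMUST00000196061 had 0 counts in shNS and 105 in Dis3l2r, at least 59.1-fold higher with a floor of 3 counts in the library at 0. It had 65, 54 and 93 counts in shDis3l2, Vector and D389N, so shNS was the only EV library at 0. The cells did not lack it: whole-cell RNA held 26670 counts in shNS and 30854 in shDis3l2. ENSMUST00000083163 had 232 counts in shNS and 0 in Dis3l2r, at least 45.8-fold lower by the same floor, and 0 in the other 3 EV libraries. ENSMUST00000082666 fell from 253 to 44 counts (log2 -1.77), with 5.20 CPM in shDis3l2 and 2.91 in Dis3l2r against 9.91 in shNS.

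Pieces of transcripts (exon, intron and UTR segments) overlap the transcript rows and were read as separate sets. Intron pieces were denser in the rescue: Dis3l2r held 51.7 intron counts per 100 whole-RNA counts and shNS 37.1, and the other 3 EV libraries 40.0 to 45.4. Of 232768 intron pieces 95900 had a count in Dis3l2r and 84721 in shNS, although the Dis3l2r library was smaller. On the whole-RNA scale 4277 of 12173 measured intron pieces were higher and 359 lower (38.1%), with a median log2 ratio of 0.75, while the summed intron level differed by 0.42. Scaled to the set's own totals the counts were 2071 and 650, and with TMM on the set 1226 and 1117. Against the same shNS library on the whole-RNA scale, shDis3l2 had 1062 intron pieces higher and 1573 lower, Vector 1485 and 2584, and D389N 2662 and 1281.

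Exon pieces gave 74 higher and 39 lower of 408 (27.7%), or 44 and 66 with the set's own totals, and 2.27 against 1.65 counts per 100 whole-RNA counts. UTR pieces gave 393 higher and 91 lower of 1320 (36.7%). These counts became 287 and 138 with the set's own totals, and 192 and 195 with TMM on the set. On the whole-RNA scale, UTR pieces outside the whole-transcript rows gave 378 and 86 of 1120 (41.4%). Those that repeat a whole-transcript row gave 15 and 5 of 200 (10%). The 10 largest intron pieces held 39.3% of intron counts in Dis3l2r and 46.1% in shNS. The largest 2 had log2 ratios of 0.11 and 0.88 on the whole-RNA scale.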

How the data were processed

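The authors deposited 1 table of estimated counts (expected counts per row, with no scaling of libraries), with 580839 rows; 7.28% of its values were not whole. GRCm38 and mm10 are the builds, and Salmon, Novoalign, cutadapt and UMI-tools the programs, listed per the submitters' processing notes. Not given in the sources used here are their versions, their order and any deduplication. Libraries were made from 50 ng of RNA by template switching, per the labels' protocols. Counts were rounded to whole numbers. TMM factors came from the 5 EV libraries (edgeR 4.0.16, R 4.3.3). Log2 ratios of Dis3l2r over shNS have exact conditional binomial 95% intervals, and shares exact Clopper-Pearson intervals (scipy 1.17.1). Medians took members with at least 20 counts, with rows at 0 set to 3 counts; distances took RNAs with a mean of at least 50 counts and added 0.5. The scripts were tested on simulated data. With 1 library a group no p-value was computed.

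Named RNAs were the 12 largest rises and falls by the rule of size, called and most abundant families, 4.5S RNA, the 5 most abundant rows, and SINE, spliced and unspliced intron-containing rows with at least 100 counts. Of 3639 transcript IDs 0 were matched to a gene name, so lists by symbol and cell type markers have no result and at most 2 IDs each way are printed; ENSMUST00000198477 was chosen after its values were seen. Members and lists were chosen with earlier results of these data known. Alternatives were other scales, count minimums, fold limits and denominators.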

Additional observations from a re-analysis of the deposited data

How the results depend on the processing

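No paired analysis was possible because each group has 1 library and the labels carry no replicate numbers; for the same reason no library could be left out within a group. The count of called RNAs (63) became 124 with a minimum of 20 counts, 33 with 500, 155 with a 1.5-fold limit and 6 with a 4-fold limit. Called families (7) became 14 at 1.5-fold and 0 at 4-fold. With TMM from the 2 libraries or from all 7, the median log2 ratio became -0.156 for tRNA, 0.134 for transcripts and -0.00106 for all RNAs. With totals of all rows these were -0.151, 0.139 and 0.00405. With exon-piece totals they were -0.441, -0.151 and -0.286, and intron-containing tRNA became -0.188 and SINE -0.0162. With intron-piece totals the 5 medians were -0.456 (tRNA), -0.166 (transcripts), -0.301 (all RNAs), -0.203 (intron-containing tRNA) and -0.0312 (SINE). With whole-RNA totals tRNA became 0.0242 and transcripts 0.314. Without the most abundant transcript they were 0.0701 and 0.36, and all RNAs 0.225. Called intron pieces (4636) became 2721 with the set's totals, 2343 with TMM on the set and 24048 with a minimum of 20 counts. That minimum gave 3415 exon and 5478 UTR pieces. With all rows as the denominator, Dis3l2r and shNS shares became 37.6% and 45.1% for tRNA, 0.383% and 0.742% for spliced tRNA, 2.74% and 2.92% for 4.5S RNA, 0.125% and 0.0943% for SINE, and 13.3% and 12.2% for transcripts. Without the most abundant transcript they were 75.8% and 78.0%, 0.773% and 1.28%, 5.52% and 5.05%, 0.252% and 0.163%, and 17.7% and 15.5%. Of 118 named values, no called one changed sign; 115 kept their direction and side of the limit with whole-RNA totals, 108 with DESeq2 factors, 100 with TMM from the pair, 68 with exon totals and 66 with intron totals. A shift of scale moves all medians alike by construction; why the scales differ was not tested. The median absolute log2 ratio (0.43) was 0.37 to 0.44 over the 4 scales added after the data were seen. The Dis3l2r library, the shallowest, limits rows of few counts most.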
